A study of Mus musculus with 36 samples.

Results

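The genes described here are 10 interferon-inducible GTPases of the mouse, 6 guanylate-binding proteins (Gbp2, Gbp3, Gbp4, Gbp5, Gbp7 and Gbp9) and 4 immunity-related GTPases (Igtp, Irgm1, Irgm2 and Iigp1). They were chosen by name from 54203 annotated genes, and the estimated reads of their transcripts were summed per gene. All 10 entered the tests, and 9 had reads in each of the 36 libraries. Iigp1 did not, and it passed the filter on low counts only through the groups in which it was read. The p-values and calls of Iigp1 are therefore listed but not read as evidence of a difference.

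RNA was sequenced from plasma cells of the bone marrow of C57/BL6 mice, sorted as CD138+TACI+ (reporter+) cells, 2000 per library. The transgenes stand for genetic lesions found in multiple myeloma. In the Ccnd1 (D) cohort, 4 Control(D) libraries stood beside 4 with Ccnd1 (cyclin D1), 4 with Ikk2ca(D) (a constitutively active IKK2 kinase, which activates NF-kB) and 6 with both, Ccnd1-Ikk2ca. In the MMSET (M) cohort, 4 Control(M) libraries stood beside 4 with MMSET (the histone methyltransferase Nsd2), 4 with Ikk2ca(M) and 6 with both, MMSET-Ikk2ca. The driver of the transgenes, and the age and sex of the animals, are not given in the sources used here. Nor do the labels say that each library came from its own mouse, so the p-values measure the spread between these libraries. In sorted bulk RNA, more cells that express a gene and more RNA per cell cannot be told apart.

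Guanylate-binding proteins and immunity-related GTPases belong to the dynamin superfamily and are among the genes that interferon-gamma induces most strongly. Interferon-gamma acts through the kinases JAK1 and JAK2 and through IRF1, which binds interferon-stimulated response elements (ISRE). Promoters of its target genes also carry gamma-activated sites (GAS). The induced proteins assemble on vacuoles and on bacteria in the cytosol and break them open. Within the immunity-related GTPases, Irgm1, Irgm2 and Igtp (also called Irgm3) act as regulators that keep effectors such as Iigp1 (Irga6) inactive on the cell's own membranes.

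In the GRCm38 genome, Gbp5, Gbp7, Gbp3 and Gbp2 are neighbours on the plus strand of chromosome 3, between chr3:142493978-142522344 (Gbp5) and chr3:142620602-142638008 (Gbp2). Gbp4 (chr5:105115767-105139586) and Gbp9 (chr5:105077630-105139539) overlap on the minus strand of chromosome 5. Igtp (chr11:58199556-58207591) and Irgm2 (chr11:58199618-58222782) overlap on the plus strand of chromosome 11, and Irgm1 (chr11:48861968-48871683) lies apart from them on the minus strand. All 10 are annotated as protein coding.

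RefSeq promoters (GRCm38.p6, 250 bases before to 50 after a transcription start) were matched for 7 of the 10 genes, with 8 sequences because Gbp3 has 2 starts. Gbp4, Gbp9 and Iigp1 had no entry. Both strands were searched for the core of an ISRE (GAAA, any 2 bases, GAAA), for a GAS (TTCNNNGAA) and for a core of NF-kB sites (GGGA, any 4 bases, CC), and matches were allowed to overlap. The stretches from 170 bases before to 20 bases after the start are shown for 6 genes, because they show how interferon and NF-kB motifs are arranged in genes with different changes, Irgm1 among them. Capitals mark the motif matches. The stretches are chr11:58199386-58199575 (Igtp, plus strand), chr11:58214807-58214996 (Irgm2, plus), chr11:48871401-48871590 (Irgm1, minus), chr3:142496764-142496953 (Gbp5, plus), chr3:142530166-142530355 (Gbp7, plus) and chr3:142559874-142560063 (the upstream start of Gbp3, plus).
Igtp: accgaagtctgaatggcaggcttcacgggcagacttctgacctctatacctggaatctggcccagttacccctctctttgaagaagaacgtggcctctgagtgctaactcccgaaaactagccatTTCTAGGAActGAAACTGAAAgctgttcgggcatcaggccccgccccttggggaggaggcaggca
Irgm2: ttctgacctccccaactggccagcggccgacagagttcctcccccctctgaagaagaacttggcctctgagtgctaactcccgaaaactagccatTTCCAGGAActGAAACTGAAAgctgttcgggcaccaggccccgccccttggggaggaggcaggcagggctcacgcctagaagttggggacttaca
Irgm1: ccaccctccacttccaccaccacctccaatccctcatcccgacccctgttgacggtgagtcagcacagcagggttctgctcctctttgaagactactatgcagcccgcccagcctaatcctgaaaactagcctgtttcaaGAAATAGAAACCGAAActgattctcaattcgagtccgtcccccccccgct
Gbp5: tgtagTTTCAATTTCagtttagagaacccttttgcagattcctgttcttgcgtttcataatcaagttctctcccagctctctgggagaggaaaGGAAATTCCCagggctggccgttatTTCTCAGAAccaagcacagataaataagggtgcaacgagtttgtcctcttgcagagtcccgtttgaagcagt
Gbp7: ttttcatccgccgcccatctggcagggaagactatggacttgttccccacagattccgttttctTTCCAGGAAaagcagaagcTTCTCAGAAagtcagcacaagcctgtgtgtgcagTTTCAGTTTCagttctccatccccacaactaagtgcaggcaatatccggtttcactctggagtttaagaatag
Gbp3: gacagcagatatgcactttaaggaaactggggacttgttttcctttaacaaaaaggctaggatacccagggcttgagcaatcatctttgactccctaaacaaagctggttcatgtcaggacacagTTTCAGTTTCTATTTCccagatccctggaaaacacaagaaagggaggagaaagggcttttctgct

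An ISRE core was present in 7 of the 8 promoters and in all 7 genes matched, against 3.44% of the 32851 promoters in the table. In Igtp and Irgm2 the same GAAACTGAAA follows a GAS closely, TTCTAGGAA in Igtp and TTCCAGGAA in Irgm2. In Irgm1 a pair of overlapping matches (GAAATAGAAA and GAAACCGAAA) begins 30 bases before the start, and no GAS was matched. A GAS was found in 4 of the 7 genes (Gbp5, Gbp7, Igtp and Irgm2), against 8.3% of all promoters. The NF-kB core was found in 2 genes, Gbp5 (GGAAATTCCC, on the minus strand, 77 bases before the start) and Gbp2 (GGAACTTCCC, beginning 7 bases after the start position), against 20.7% of all promoters. The second start of Gbp3 held none of the 3 motifs. A match is a run of letters and not a measured binding site, and the promoters were not assayed here.

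**Figure D1:**
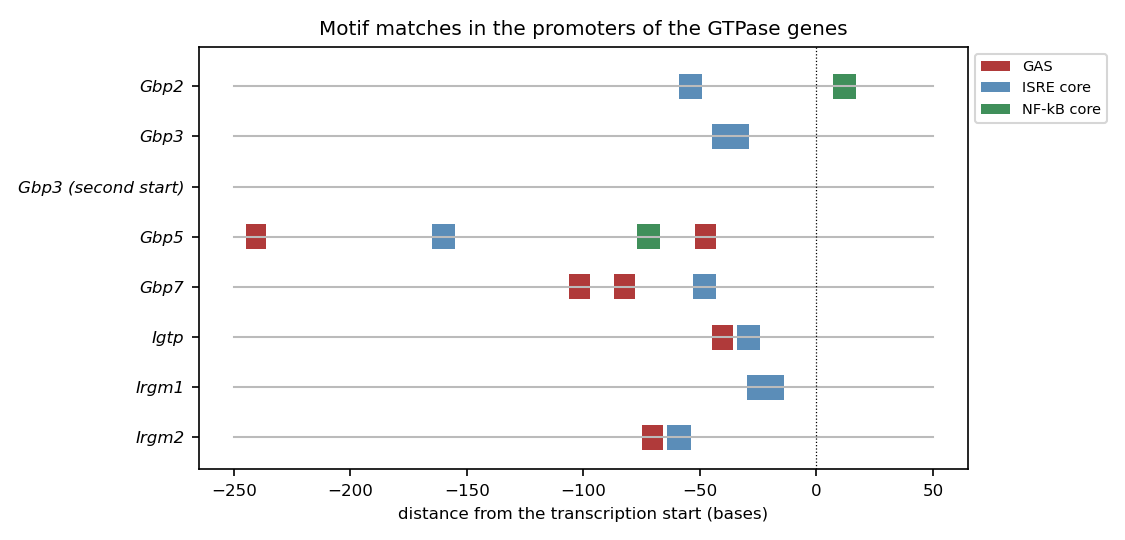
Motif matches in the promoters of 7 GTPase genes, drawn by distance from the transcription start in bases, with coloured boxes for the GAS, the ISRE core and the NF-kB core. Every gene has an ISRE core match in at least 1 of its promoters, and the matches of Igtp and Irgm2 sit next to a GAS.

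Libraries had 54.1 to 97.6 M reads. Immunoglobulin genes took 43.9% to 73.0% of them, and 16.2 to 34.9 M per library fell on other genes. The transgenes followed the labels. Ccnd1 stood at 253 to 988 CPM (reads scaled to the size of the library) in the groups that carry it and at no more than 3.54 CPM elsewhere, and Nsd2 stood at 175 to 815 CPM against at most 9.83 CPM. Ikbkb, which encodes IKK2, averaged 53.3 to 57.1 CPM in the 4 groups with Ikk2ca and 18.8 to 27.2 CPM in the other 4. All 10 plasma cell markers were detected in every group, although their summed level was lower with both transgenes (7773 to 19960 CPM in Ccnd1-Ikk2ca against 53950 to 99860 in Control(D), and 4773 to 6706 in MMSET-Ikk2ca against 30990 to 42290 in Control(M)). It was also below the control range in Ikk2ca(D) (17580 to 47690), MMSET (7312 to 24050) and Ikk2ca(M) (7080 to 16880). With Ccnd1 alone it overlapped the controls (30660 to 117800). Xist, a transcript of female cells, was above 10 CPM in 1 of 4 Control(D), 2 of 4 Ccnd1, 4 of 4 Ikk2ca(D), 3 of 6 Ccnd1-Ikk2ca, 2 of 4 Control(M), 3 of 4 MMSET, 4 of 4 Ikk2ca(M) and 3 of 6 MMSET-Ikk2ca libraries.

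Levels between genes are compared as TPM, which is scaled by transcript length. In Control(D) cells Igtp had the highest level of the 10, 9.12 ± 3.22 TPM (SD, n = 4), followed by Irgm1 at 6.20 ± 1.58 and Gbp4 at 2.94 ± 0.61. Control(M) gave the same leading pair, with Igtp at 9.62 ± 0.55 TPM and Irgm1 at 4.60 ± 1.55 (n = 4). Gbp2 was at 0.308 ± 0.219 and 0.610 ± 0.454 TPM and Gbp5 at 0.557 ± 0.496 and 0.951 ± 1.324 TPM in the same groups, so both were among the lowest in control plasma cells. In Ccnd1-Ikk2ca cells Igtp stood at 39.2 ± 22.4 TPM and Gbp5, at rank 8 of 10 in the control, was at rank 4 with 10.7 ± 9.75 TPM (n = 6). In MMSET-Ikk2ca cells Igtp stood at 51.4 ± 34.0 and Gbp5, at rank 2, at 14.6 ± 16.1 TPM (n = 6).

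**Figure D2:**
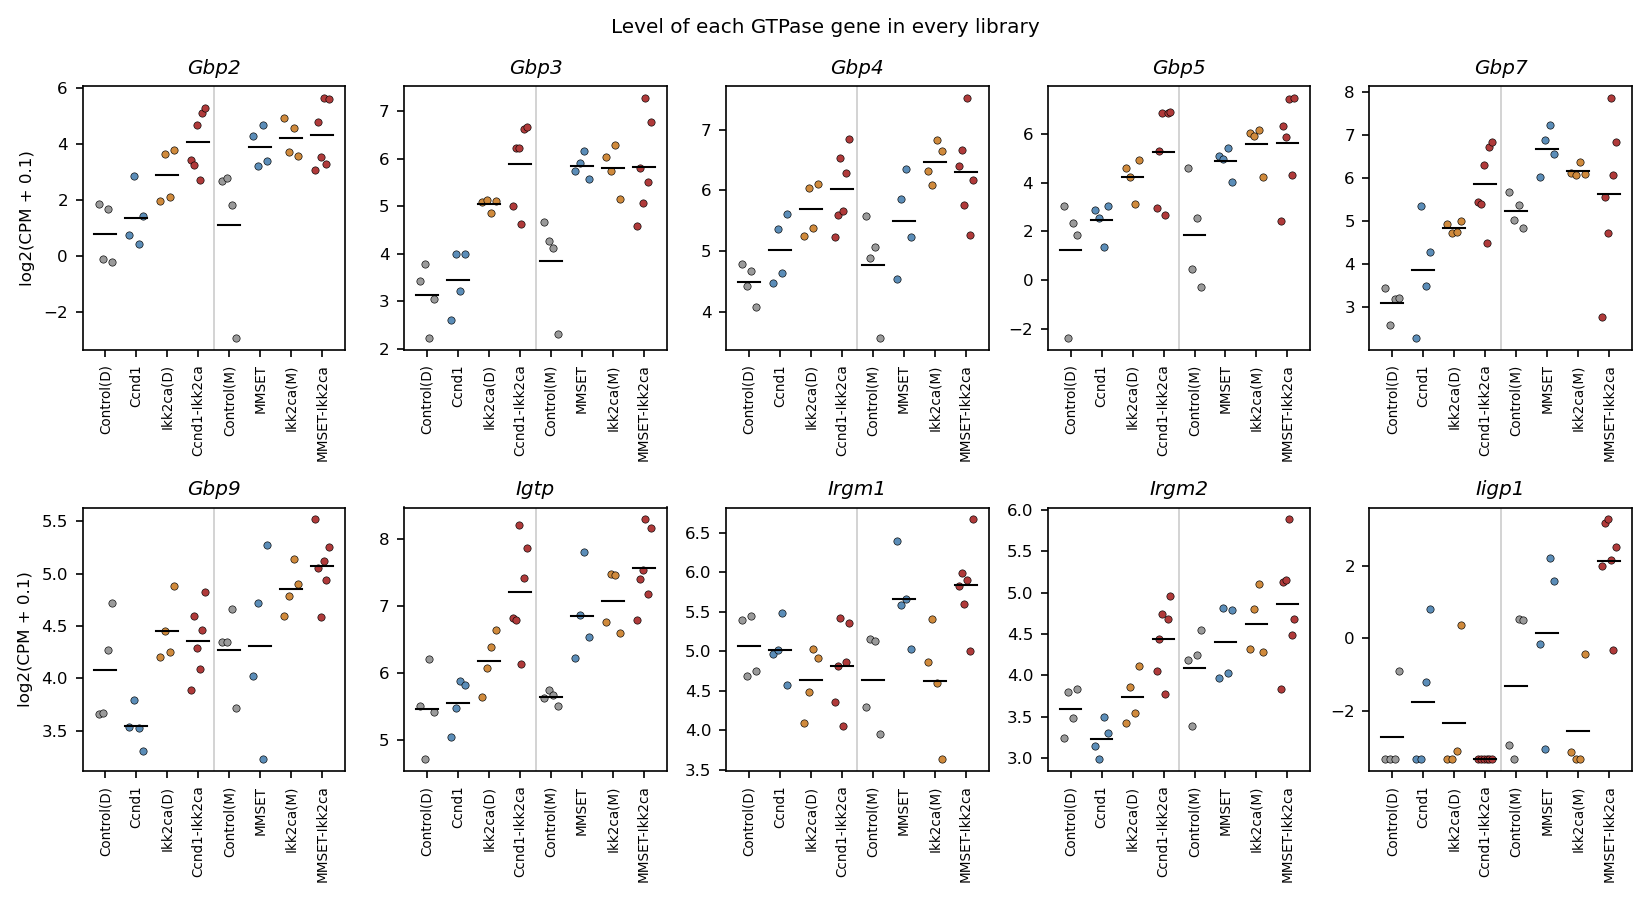
Level of each GTPase gene in each of the 36 libraries, as log2 of CPM plus 0.1 on the vertical axis, by group, where points are libraries and bars are means of the plotted values. For Gbp2, Gbp3, Gbp4 and Gbp7 all 6 Ccnd1-Ikk2ca points lie above all 4 Control(D) points, and Iigp1 lies at the floor in all 6 Ccnd1-Ikk2ca libraries.

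With Ccnd1 and Ikk2ca together, 7 of the 10 GTPase genes rose against Control(D) and none fell (edgeR's quasi-likelihood test with Benjamini-Hochberg adjusted p under 0.05, a threshold called passing below). Over all genes tested, 5.83% rose in that comparison, 5.32% fell and 11.1% changed. For 4 of the 10 every library with both transgenes was above every control, against 7.26% of all genes. The genes that rose were Gbp2, Gbp3, Gbp4, Gbp5, Gbp7, Igtp and Irgm2, of which DESeq2 called 7 and limma voom 5. The median log2 fold change of the 10 was 1.70, against 0.02 for all genes, and it stayed at 1.70 with Iigp1 set at the level that 3 reads in the group would give. Levels from here on are CPM scaled together over all 36 libraries, and changes are log2 fold changes with their standard error.

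Gbp3 had the smallest p of the guanylate-binding genes. Its Control(D) libraries stood at 10.7, 13.8, 4.62 and 8.19 CPM, and the Ccnd1-Ikk2ca libraries ranged from 24.5 through a median of 74.7 to 102 CPM. The groups did not overlap, and the log2 fold change was 2.85 ± 0.43 (7.20-fold, edgeR adjusted p = 0.000578). Gbp7, its neighbour on chromosome 3, stood at 10.7, 5.90, 9.08 and 9.25 CPM in Control(D) and at 22.4, 61.6 and 114 CPM (lowest, median and highest) in Ccnd1-Ikk2ca. All 6 libraries lay above all 4 controls, with a log2 fold change of 2.94 ± 0.55 (edgeR adjusted p = 0.00323).

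Of the 7 genes that rose, Gbp2 and Gbp5 had the lowest control levels and the largest fitted changes. Gbp2, one of the guanylate-binding proteins recruited to bacterial and parasite vacuoles, stood at 3.48, 0.82, 3.12 and 0.76 CPM in Control(D) and at 6.43, 18.3 and 38.7 CPM (lowest, median and highest) with both transgenes. The groups did not overlap, and the log2 fold change was 3.33 ± 0.74 (10.1-fold, edgeR adjusted p = 0.00817). The call was lost with limma voom (3.29 ± 1.16, adjusted p = 0.063). Gbp5, which is known for promoting inflammasome assembly, stood at 8.11, 0.10, 4.97 and 3.52 CPM in the control libraries and at 6.29, 77.3 and 117 CPM with both transgenes. Its groups overlapped, since Ccnd1-Ikk2ca libraries 1 and 4 (7.76 and 6.29 CPM) lay below the highest control, and its 4 other libraries ran from 39.3 to 117 CPM. The fitted log2 fold change was 3.98 ± 1.09 (edgeR adjusted p = 0.0298), and it no longer passed without Control(D) library 3 (adjusted p = 0.0737), Control(D) library 4 (0.0787) or Ccnd1-Ikk2ca library 3 (0.0517). It was lost in 6 of 11 other settings, with adjusted p from 0.0556 (no filter on low counts) to 0.206 (limma voom).

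Of the overlapping pair on chromosome 5, Gbp4 rose and Gbp9 did not pass. Gbp4 stood at 27.5, 21.3, 25.4 and 16.7 CPM in Control(D) and at 37.4, 64.1 and 115 CPM with both transgenes. Again every library with both transgenes was above every control, with a log2 fold change of 1.61 ± 0.32 (edgeR adjusted p = 0.00327). Gbp9 stood at 12.5, 12.6, 19.2 and 26.2 CPM in the controls and at 14.7, 20.8 and 28.2 CPM in Ccnd1-Ikk2ca. These ranges overlapped almost throughout, and the log2 fold change was 0.22 ± 0.23 (edgeR adjusted p = 0.623). The difference between the 2 genes was not tested.

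Among the regulators of the immunity-related family, Igtp and Irgm2 rose and Irgm1 did not. Igtp stood at 45.4, 26.2, 74.0 and 42.5 CPM in Control(D) and at 69.9, 142 and 296 CPM with both transgenes, where 5 of 6 libraries exceeded the highest control. Its log2 fold change was 1.79 ± 0.37 (3.47-fold, edgeR adjusted p = 0.00544). Irgm2 stood at 9.39, 13.8, 11.1 and 14.2 CPM in Control(D) and at 13.6, 23.5 and 30.97 CPM in Ccnd1-Ikk2ca. It changed least of the genes that passed, by 0.87 ± 0.23 (edgeR adjusted p = 0.0184), and did not pass without Control(D) library 1 (adjusted p = 0.0673) or library 3 (0.0575). Nor did it pass in edgeR with libraries 1 to 4 alone, with (0.098) or without (0.0893) a replicate block. With all 36 libraries in 1 fit its adjusted p was 0.0509. Irgm1, whose promoter carries 2 overlapping ISRE matches, stood at 42.0, 25.7, 43.6 and 26.9 CPM in the controls and at 16.6, 28.5 and 42.6 CPM with both transgenes. No library with both transgenes was above the highest control, and the change of -0.24 ± 0.26 did not pass (edgeR adjusted p = 0.643).

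**Figure D3:**
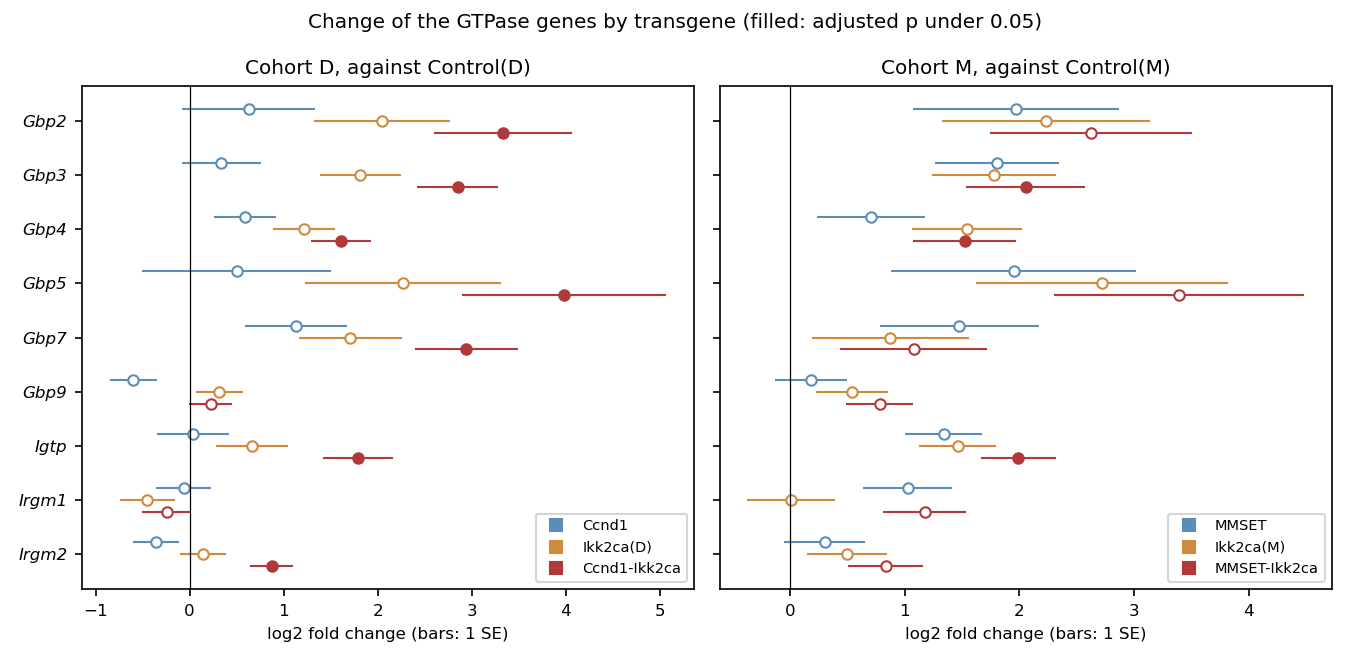
Log2 fold change of 9 GTPase genes against the control of their cohort, with bars of 1 SE, for each transgene group in cohort D (left) and cohort M (right), and with filled points where the adjusted p is under 0.05. Filled points occur only in the double transgenic groups, 7 in cohort D and 3 in cohort M. Iigp1 is left out because whole groups had no reads of it.

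Neither transgene of cohort D alone gave a call among the 10 genes. Ccnd1 alone changed 0 of 10 (0.00653% of all genes changed), with a median of 0.42 against 0.02 for all genes. With an unadjusted p under 0.05, none was higher and 1, Gbp9, was lower (-0.60 ± 0.25). Such a p was held by 964 of all 15323 genes in either direction. DESeq2 and limma voom also called 0 of the 10. Ikk2ca(D) alone changed 0 of 10 (0.437% of all genes changed, 0.398% up and 0.0392% down), with a median of 1.33 against 0.01 for all genes. The unadjusted p was under 0.05 for 5, all higher (Gbp2, Gbp3, Gbp4, Gbp5 and Gbp7), and for 2045 of all 15323 genes in either direction. Of the 10, DESeq2 called 3 (Gbp3, Gbp4 and Gbp7) and limma voom 0.

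Gbp3 and Gbp7 show the levels behind this. Gbp3 stood at 34.0, 35.0, 29.0 and 34.5 CPM in Ikk2ca(D), between the controls and most double transgenic libraries, and at 5.95, 15.9, 9.18 and 15.8 CPM with Ccnd1 alone. Every Ikk2ca(D) library was above every control, with a log2 fold change of 1.81 ± 0.43 (edgeR adjusted p = 0.0785). Gbp7 stood at 30.5, 26.5, 26.8 and 31.8 CPM in Ikk2ca(D) and at 4.81, 40.9, 11.2 and 19.4 CPM with Ccnd1 alone, where the libraries were widely spread. In all, 5 of the 10 genes had every Ikk2ca(D) library above every control, against 4.35% of all genes.

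Ccnd1-Ikk2ca cells differed from cells with Ccnd1 alone in 6 of the 10 genes, all higher (2.81% of all genes rose in that comparison). These were Gbp2 (2.70 ± 0.71), Gbp3 (2.51 ± 0.42), Gbp7 (1.81 ± 0.52), Gbp9 (0.82 ± 0.23), Igtp (1.76 ± 0.37) and Irgm2 (1.23 ± 0.23). The edgeR adjusted p was 0.00207 for Gbp3, 0.00932 for Igtp, 0.00347 for Irgm2, 0.0314 for Gbp2, 0.0429 for Gbp9 and 0.0489 for Gbp7. Gbp9 stood at 11.5, 13.8, 11.4 and 9.82 CPM with Ccnd1 alone, below all 6 Ccnd1-Ikk2ca libraries. Such a separation held for 4 of the 10 genes, against 4.99% of all genes. Gbp7 passed in 4 of the 18 fits that left out 1 library and Gbp9 in 9, and Gbp2 in 12, while Gbp3, Igtp and Irgm2 passed in all 18. Of 11 other settings Gbp2 passed in 6, and it was lost with limma voom (adjusted p = 0.101), as was Gbp9 (0.0691). Gbp7 was lost in edgeR with no filter on low counts (adjusted p = 0.104) and with only the groups compared (0.156), among others. The number called fell from 6 to 3 without Ccnd1 library 1 or 3 or without Ccnd1-Ikk2ca library 3, 5 or 6. DESeq2 called 8 of the 10, with Gbp4 (adjusted p = 0.0105) and Gbp5 (0.00145) added, and limma voom called 4.

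Against Ikk2ca(D) alone, Ccnd1-Ikk2ca cells differed in 0 of the 10 genes (0.424% of all genes). Those with an unadjusted p under 0.05 were 4 higher (Gbp3, Gbp7, Igtp and Irgm2) and 1 lower (Iigp1), beside 1737 of all 15323 genes. Of the 10, DESeq2 called Igtp and limma voom called none. The log2 fold changes of Igtp and Irgm2 were 1.13 ± 0.36 (edgeR adjusted p = 0.209) and 0.73 ± 0.23 (0.19). The interaction of Ccnd1 and Ikk2ca, which asks whether both together differ from the sum of the single effects, was called in 0 of 10 (0.0261% of all genes). At an unadjusted p under 0.05 it was higher for Irgm2 (1.09 ± 0.33, edgeR adjusted p = 0.582) and lower for Iigp1. DESeq2 and limma voom called none of the 10. An unadjusted p under 0.05 for the interaction was held by 1051 of all 15323 genes.

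In cohort M, MMSET and Ikk2ca together raised 3 of the 10 GTPase genes, Gbp3, Gbp4 and Igtp, and lowered none. Over all genes tested, 3.5% rose, 3.41% fell and 6.91% changed. The median of the 10 was 1.76, against 0.01 for all genes, beside 1.70 in cohort D. The unadjusted p was under 0.05 for 8 of 10, all higher, and for 3365 of all 15416 genes in either direction. Of the 10, DESeq2 called 6, which were these 3 and Gbp2, Gbp5 and Irgm1. Limma voom called 2, Igtp and Irgm1, and lost Gbp3 (adjusted p = 0.0588) and Gbp4 (0.0538).

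Igtp was the firmest of the genes that passed in edgeR. It stood at 49.1, 53.8, 50.9 and 45.5 CPM in Control(M) and at 110, 178 and 312 CPM (lowest, median and highest) with both transgenes. All 6 double transgenic libraries were above all 4 controls, which held for 2 of the 10 genes and for 4.94% of all genes. The log2 fold change of Igtp was 1.99 ± 0.32 (3.98-fold, edgeR adjusted p = 0.000936). It passed in each of the 18 fits that left out a library of the cohort and in all 11 other settings tried.

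Gbp3 and Gbp4 rested on fewer libraries. Gbp3 stood at 25.3, 19.2, 17.4 and 4.89 CPM in Control(M) and at 23.9, 50.6 and 156 CPM with both transgenes, a log2 fold change of 2.06 ± 0.52 (edgeR adjusted p = 0.0258). Gbp4 stood at 47.3, 29.3, 33.2 and 11.8 CPM and at 38.4, 77.9 and 184 CPM, a change of 1.52 ± 0.45 (adjusted p = 0.0499). Each had 5 of 6 libraries above the highest control. Neither passed without Control(M) library 2, 3 or 4, or without MMSET-Ikk2ca library 6, which left Igtp as the one call. Gbp4 passed in 4 of 18 such fits. Control(M) library 4 had the lowest level in its group for 8 of the 9 genes other than Iigp1, and without it the log2 fold changes were 1.75 ± 0.49 for Gbp3 (edgeR adjusted p = 0.0537) and 1.26 ± 0.44 for Gbp4 (0.122).

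Gbp2, Gbp5, Gbp7 and Irgm1 did not pass in edgeR, although DESeq2 called all of them but Gbp7. Gbp5 stood at 24.0, 1.27, 5.84 and 0.73 CPM in Control(M) and at 5.29, 69.2 and 176 CPM with both transgenes, and its log2 fold change of 3.39 ± 1.09 had an edgeR adjusted p of 0.0798. Gbp2 stood at 6.28, 6.83, 3.43 and 0.03 CPM and at 8.32, 19.5 and 50.1 CPM. Its groups did not overlap, yet the change of 2.62 ± 0.88 did not pass (adjusted p = 0.0893). Gbp7 was already at 51.4, 32.8, 41.8 and 28.5 CPM in Control(M), and MMSET-Ikk2ca libraries lay on both sides of that range, from 6.75 through 57.3 to 234 CPM (1.08 ± 0.64, adjusted p = 0.376). Irgm1 stood at 19.6, 35.4, 35.0 and 15.3 CPM in the controls and at 32.1, 58.3 and 102 CPM with both transgenes (1.17 ± 0.36, adjusted p = 0.0609). Besides DESeq2, its call was gained with limma voom (adjusted p = 0.0452). In edgeR it was gained with a replicate block (0.0397), all 36 libraries in 1 fit (0.0258) and only the groups compared (0.0487), and not in the remaining settings. Gbp9 (0.78 ± 0.29, 0.115) and Irgm2 (0.83 ± 0.33, 0.136) had smaller changes.

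MMSET alone called 0 of the 10 genes (0.649% of all genes changed, 0.474% up), with a median of 1.41 against 0.01 for all genes. The unadjusted p was under 0.05 for 4, all higher (Gbp2, Gbp3, Igtp and Irgm1), and for 2048 of all 15416 genes in either direction. Of the 10, DESeq2 called Gbp3 and Igtp, and limma voom called none. Igtp stood at 74.8, 116, 222 and 92.4 CPM, above every control, with a log2 fold change of 1.34 ± 0.33 (edgeR adjusted p = 0.075). In all, 4 of the 10 genes had every MMSET library above every control, against 3.09% of all genes. Ikk2ca(M) alone also called 0 (0.649% of all genes), with a median of 1.17 against -0.01 for all genes. At an unadjusted p under 0.05, 5 were higher (Gbp2, Gbp3, Gbp4, Gbp5 and Igtp), beside 1912 of all 15416 genes in either direction. Of the 10, DESeq2 called 3 (Gbp3, Gbp4 and Igtp) and limma voom 1 (Igtp). Igtp stood there at 108, 178, 175 and 96.8 CPM, again above every control (1.46 ± 0.34, edgeR adjusted p = 0.052). Every Ikk2ca(M) library was above every control for 5 of the 10 genes, against 4.61% of all genes.

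Adding the second transgene in cohort M gave no call. MMSET-Ikk2ca against Ikk2ca(M) called 0 of 10 (0.96% of all genes), with 2 higher at an unadjusted p under 0.05 (Irgm1 and Iigp1). DESeq2 called the same pair, and limma voom called Iigp1 alone. Apart from Iigp1, whose calls are not read as evidence, this leaves Irgm1 by DESeq2 and no gene by limma voom. MMSET-Ikk2ca against MMSET called 0 (1.58% of all genes, 0.941% down), with 1 higher at an unadjusted p under 0.05 (Igtp) and 0 by DESeq2 and by limma voom. The interaction of MMSET and Ikk2ca called 0 of 10 (0.0973% of all genes, 0.0195% up and 0.0778% down), with 1 lower at an unadjusted p under 0.05, Gbp3 (-1.53 ± 0.71, edgeR adjusted p = 0.475), and 0 by DESeq2 and by limma voom. Among all 15416 genes, an unadjusted p under 0.05 was held by 1934 against Ikk2ca(M), 2064 against MMSET and 1605 for the interaction. The median interaction over the 10 genes was -0.77 in cohort M and 0.58 in cohort D, and that difference was not tested.

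The cohorts were then compared directly in a fit of all 36 libraries, in which cohort and genotype cannot be told apart. Of the 9 genes other than Iigp1, 1 differed between the double transgenic groups, Irgm1, which was higher in MMSET-Ikk2ca (0.923% of all genes were higher there, 1.57% were lower and 2.49% differed). The log2 difference of Irgm1 was 1.03 ± 0.29 (edgeR adjusted p = 0.0493), and it passed in 9 of the 36 fits that left out 1 library. The remaining 8 genes did not pass in edgeR, with differences from 0.05 ± 0.40 (Gbp3) to 0.72 ± 0.24 (Gbp9, adjusted p = 0.111). DESeq2 and limma voom each called 3 of the 10, adding Gbp9 (adjusted p = 0.04925 and 0.0311) to Irgm1 and Iigp1.

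Iigp1, on chromosome 18, was the one gene of the 10 that was present with one pair of transgenes and not found with the other. It had 0 reads in all 6 Ccnd1-Ikk2ca libraries and 56 to 644 reads in all 6 MMSET-Ikk2ca libraries, which put the latter at 0.70, 4.97 and 9.54 CPM (lowest, median and highest). Taking 3 reads over the Ccnd1-Ikk2ca group as the floor, the MMSET-Ikk2ca group was at least 794-fold higher. This is given as a description with no test, because Iigp1 passed the filter on low counts only through the groups in which it was read.

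Elsewhere Iigp1 was read unevenly. In Control(D) it had reads in 1 library of 4 (0.43 CPM), in Ccnd1 in 2 of 4 and in Ikk2ca(D) in 2 of 4, the highest being 1.66 CPM. Control(M) had it in 3 of 4 libraries at up to 1.35 CPM, Ikk2ca(M) in 2 of 4 at up to 0.65 CPM, and MMSET in 4 of 4 at 0.80, 0.02, 4.51 and 2.90 CPM. The groups with MMSET were thus the ones with reads in every library, but for MMSET library 2 this was 1 read. In this respect that read alone sets the MMSET group apart from Control(M). Within its cohort, MMSET-Ikk2ca did not pass against Control(M) for Iigp1 (3.01 ± 1.55, edgeR adjusted p = 0.277), and Ccnd1-Ikk2ca did not pass against Control(D) (adjusted p = 0.148), where the controls held 27 reads in all, in 1 library.

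The controls of the 2 cohorts differed in 0 of the 10 genes (0.0409% of all genes), with 1 higher in Control(M) at an unadjusted p under 0.05, Gbp7 (2.14 ± 0.66, edgeR adjusted p = 0.31), which DESeq2 called and limma voom did not. No Control(D) library reached any Control(M) library for Gbp7, as was so for 2.29% of all genes. Ikk2ca(M) and Ikk2ca(D) differed in 0 of 10 (0% of all genes), with 3 higher in cohort M at an unadjusted p under 0.05 (Gbp7, Igtp and Irgm2) and 0 by DESeq2 and limma voom. The effect of Ikk2ca did not pass as different between cohorts for any of the 10 genes (0% of all genes), with 0 at an unadjusted p under 0.05 and 0 by DESeq2 and limma voom. The effect of both transgenes likewise passed for none (0.175% of all genes, 0.0584% up), with Irgm1 (1.42 ± 0.46, adjusted p = 0.212) and Iigp1 higher and Gbp7 (-1.86 ± 0.82, adjusted p = 0.391) lower at an unadjusted p under 0.05, and 0 by DESeq2 and limma voom. Among all 17116 genes, an unadjusted p under 0.05 was held by 1780 between the controls and 1390 between the Ikk2ca groups. For the differences between cohorts it was held by 1079 for the effect of Ikk2ca and 1910 for that of both transgenes. By these tests, the larger number of calls in cohort D is not shown to be a difference between the cohorts.

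Libraries of one genotype differed widely. Among the Ccnd1-Ikk2ca libraries, library 4 had the lowest level for 7 of the 9 genes other than Iigp1 and library 6 the highest for 7. Among the MMSET-Ikk2ca libraries, library 1 was lowest for 6 and library 4 highest for 6. Gbp7 ran from 6.75 CPM in the former to 234 CPM in the latter, and Gbp5 ran from 5.29 CPM in library 1 to 176 CPM in library 6. The values against the control mean show this gene by gene.

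**Figure D4:**
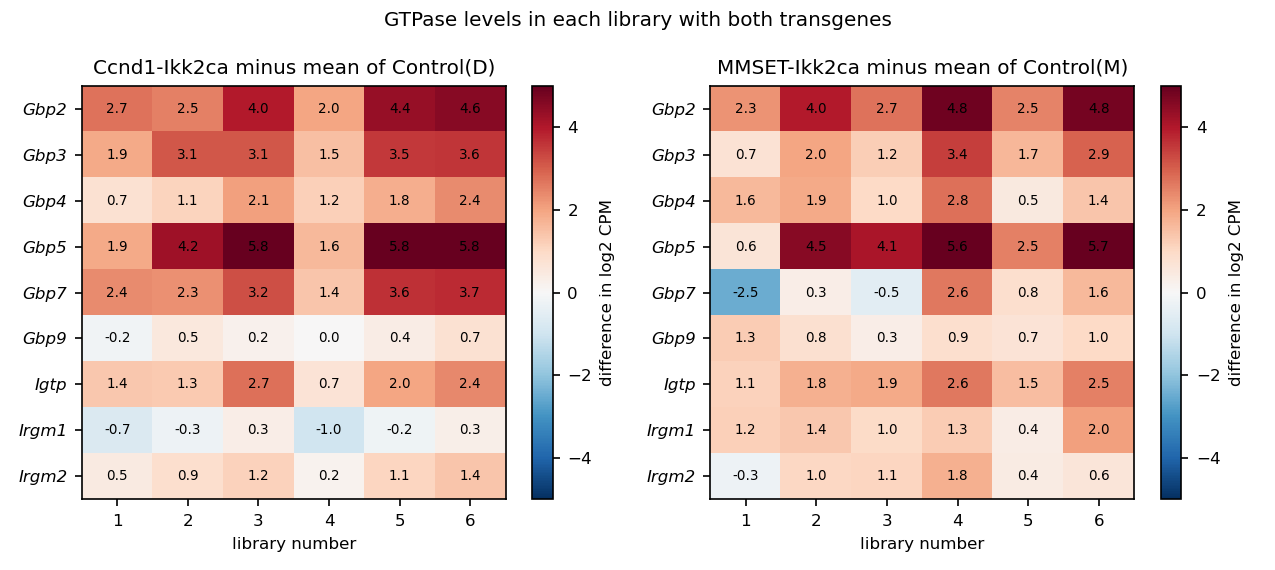
Difference in log2 CPM between each double transgenic library and the mean of the control group of its cohort, for 9 GTPase genes (rows) and 6 libraries (columns), with the value printed in each cell. Gbp5 differs least in libraries 1 and 4 of Ccnd1-Ikk2ca and library 1 of MMSET-Ikk2ca, and Gbp7 is below the control mean in MMSET-Ikk2ca libraries 1 and 3.

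With the group mean taken out, the 45 pairs among the 10 genes had a median Pearson r of 0.38 over the 36 libraries, from -0.20 to 0.75, and 15 pairs were over 0.5. The closest pair was Gbp3 and Gbp7 (0.75), followed by Gbp2 and Gbp3 (0.71) and Gbp2 and Gbp4 (0.69). Gbp3 and Gbp7 share part of their sequence, so reads could be split between them. The genes outside the 10 whose level over the 36 libraries was most like the mean of the members were Tmem176a, Cacna1s, 1810037I17Rik, Serpina3f, Gm12250 (Irgb10, another immunity-related GTPase) and Tap2 (a subunit of the peptide transporter for MHC class I), with r from 0.84 to 0.85. With the group mean taken out they were Rnd3 (0.76), Socs1 (0.73), Serpina3g (0.72), Crem (0.72), Ppp1r15a (0.70) and Cish (0.67). Socs1 and Cish encode feedback inhibitors of cytokine receptor signalling. These are descriptions over libraries that share group, depth and processing.

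Of the 15 ligand genes listed (interferons, and cytokines that induce interferon-gamma or are related), 8 had 0 reads in all 36 libraries, Ifng and Ifnb1 among them, which allows up to 3 reads in a library. Ebi3, a subunit of interleukins 27 and 35, rose in both double transgenic groups, by 2.31 ± 0.67 (edgeR adjusted p = 0.035) in cohort D and by 1.37 ± 0.24 (0.0016) in cohort M. Its mean level was 35.8 ± 17.1 CPM in Ikk2ca(D) and 49.7 ± 16.9 CPM in Ikk2ca(M) (SD, n = 4), and 24.8 ± 14.7 and 37.1 ± 9.54 CPM with both transgenes (n = 6).

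Of 17 genes for interferon receptors and JAK-STAT signalling, 7 rose and 1 fell in each double transgenic group, with medians of 0.58 in Ccnd1-Ikk2ca and 0.62 in MMSET-Ikk2ca. Tyk2, a kinase of type I interferon receptors, rose by 1.08 ± 0.19 and 1.12 ± 0.21. Jak2 rose (1.77 ± 0.37) and Jak1 fell (-1.24 ± 0.29) in Ccnd1-Ikk2ca, and in MMSET-Ikk2ca their changes of 0.65 ± 0.35 and -1.06 ± 0.36 did not pass. Ifngr2, the signalling chain of the interferon-gamma receptor, rose by 0.86 ± 0.24 and 1.40 ± 0.22. Socs1 rose in Ccnd1-Ikk2ca by 4.22 ± 1.24 (edgeR adjusted p = 0.042), with libraries from 0.48 to 134 CPM.

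Of 11 interferon regulatory factors and related regulators tested, 1 rose and 4 fell in Ccnd1-Ikk2ca, and 4 rose and 1 fell in MMSET-Ikk2ca. Irf8 fell by 2.44 in Ccnd1-Ikk2ca (SE 0.40, edgeR adjusted p = 0.0012) and was at -0.06 ± 0.38 in MMSET-Ikk2ca. Irf7 fell by 0.84 in the former (SE 0.26, adjusted p = 0.041) and rose by 1.03 ± 0.31 in the latter (0.0496). Irf9, part of the factor that binds ISREs, rose by 1.35 ± 0.32 in MMSET-Ikk2ca (0.016). Irf1, the ISRE-binding factor induced by interferon-gamma, did not pass in either (0.32 ± 0.17 and 0.53 ± 0.19).

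Of 15 other interferon-gamma targets tested, 7 rose in each double transgenic group and none fell. The antigen-presentation genes Tap1 (0.73 ± 0.15 and 1.16 ± 0.23), Tap2 (0.86 ± 0.22 and 0.81 ± 0.14) and Cd74 (1.36 ± 0.31 and 1.43 ± 0.19) rose in both. Of the type I interferon targets, 6 of 26 tested rose and 1 fell in Ccnd1-Ikk2ca, with a median of 0.18, and 11 of 29 rose in MMSET-Ikk2ca, with a median of 2.26. Isg15 rose in both, by 2.06 ± 0.63 and by 2.59 ± 0.61, and Zbp1 by 1.10 ± 0.23 and 0.79 ± 0.22. Trim30a (1.99 ± 0.29) and Xaf1 (2.26 ± 0.36) rose in MMSET-Ikk2ca, and Ifi44 rose there to 20.1 ± 8.30 CPM from 0.0359 ± 0.0514 CPM in Control(M). The medians of the 10 GTPase genes in the same comparisons were 1.70 and 1.76.

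**Figure D5:**
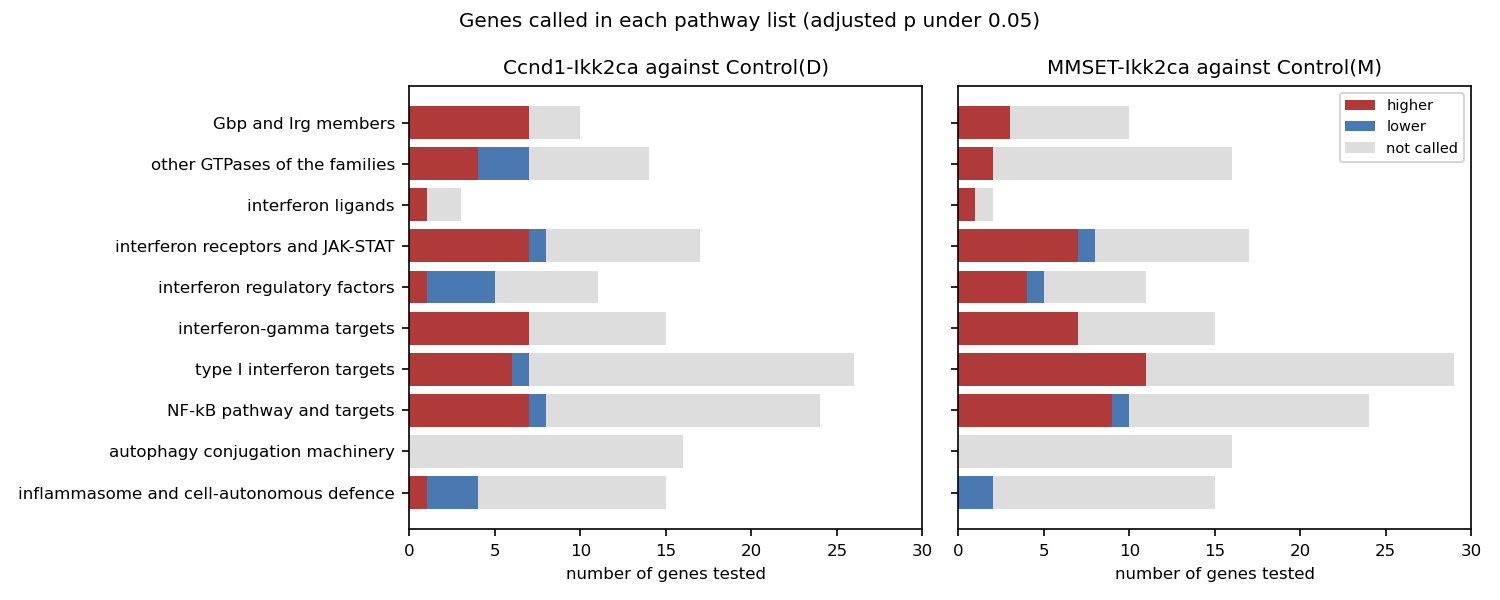
Number of genes tested in each pathway list on the horizontal axis, split into called higher, called lower and not called, for the double transgenic group of each cohort against its control. The 10 GTPase genes have 7 calls in cohort D, 3 in M, and the autophagy list has no call in either.

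Related GTPases outside the 10 moved both ways. Of 14 tested in cohort D, 4 rose and 3 fell in Ccnd1-Ikk2ca. Gbp6, which shares sequence with Gbp4 and Gbp9, rose by 2.38 ± 0.51 (edgeR adjusted p = 0.0061), and Gm12250 (Irgb10) by 1.53 ± 0.44 (0.03). Gvin1, a very large inducible GTPase, fell by 1.61 (SE 0.40, adjusted p = 0.017) and 9930111J21Rik1 by 1.496 (SE 0.24, 0.00075). Of 16 tested in cohort M, Gm12250 rose by 1.97 ± 0.44 (0.011), F830016B08Rik rose from 0 reads in the controls to 2.19 ± 1.77 CPM, and none fell. Gbp6 in MMSET-Ikk2ca was at 46.4 ± 20.4 CPM against 7.66 ± 6.18 in Control(M), which did not pass (2.58 ± 0.80, adjusted p = 0.067).

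Of 24 NF-kB pathway genes and targets, 7 rose and 1 fell in Ccnd1-Ikk2ca and 9 rose and 1 fell in MMSET-Ikk2ca. Tnfaip3 (A20) rose by 2.69 ± 0.35 and 2.85 ± 0.48 and Icam1 by 2.87 ± 0.30 and 2.60 ± 0.38. None of the 16 genes of autophagy conjugation, the machinery that loads these GTPases onto vacuoles, passed in either comparison. Their medians were -0.01 and 0.06, and Atg5 was at -0.25 ± 0.15 and -0.47 ± 0.24. In the list of 15 inflammasome and defence genes, Pycard, the adaptor of inflammasomes, fell by 2.15 (SE 0.23) and by 1.49 (SE 0.24), and Ninj1 fell by 0.76 (SE 0.18) and by 0.93 (SE 0.13). In cohort D, Sp100 fell by 0.57 (SE 0.16) and Cybb rose by 0.65 ± 0.19.

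Markers of other cells were mostly lower or not called with both transgenes. Of the 13 monocyte and macrophage markers, Ly6c2 made up 48.3% to 99.5% of the sum and rose in both double transgenic groups. The sum of all 13 was higher there, at 3803 to 7581 CPM in Ccnd1-Ikk2ca against 621.5 to 958.3 in Control(D). In cohort M it was 4922 to 10200 CPM in MMSET-Ikk2ca against 1668 to 3638 in Control(M). The other 12 summed to 34.2 to 131 CPM in Ccnd1-Ikk2ca against 109 to 179 in Control(D) and to 45.7 to 73.4 CPM in MMSET-Ikk2ca against 106 to 152 in Control(M). C1qb rose in MMSET-Ikk2ca (2.50 ± 0.50), Adgre1 fell in Ccnd1-Ikk2ca and Ccr2 and Lyz2 fell in MMSET-Ikk2ca, and Cd14 was at 0 in Ccnd1-Ikk2ca. The 11 neutrophil markers summed to 1.302 to 233 CPM in Ccnd1-Ikk2ca against 57.3 to 558 in Control(D), and to 0.792 to 15.0 against 41.1 to 210 CPM in cohort M. The 10 T cell markers summed to 3.56 to 8.04 CPM in Ccnd1-Ikk2ca against 15.6 to 28.4 in Control(D), with Cd8a at 0, and to 2.09 to 6.99 against 8.13 to 21.03 CPM in cohort M. The 10 NK cell markers summed to 9.42 to 47.5 CPM against 15.4 to 43.7 in cohort D, with Ncr1, Klrb1c, Gzmb, Eomes, Tbx21 and Klra8 at 0 and Klrk1 higher (4.02 ± 1.14) in Ccnd1-Ikk2ca, and to 1.77 to 14.7 against 7.22 to 16.5 CPM in cohort M, with Ncr1, Klrb1c, Gzmb and Klra8 at 0 in MMSET-Ikk2ca.

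In MMSET-Ikk2ca 2 further sums had a higher median than in Control(M), beside that of all 13 monocyte and macrophage markers. The ranges of the dendritic cell sums overlapped, and the sums were not tested. The 8 dendritic cell markers summed to 68.2 to 148 CPM against 38.6 to 85.2, with Clec9a at 0, and the one that passed was Bst2, itself an interferon-induced gene. The 8 stromal and endothelial markers summed to 26.7 to 82.8 CPM against 8.70 to 16.9, with Col1a1, Col1a2 and Pdgfrb at 0, and the one that passed was Pecam1, which rose by 2.04 ± 0.31. Their part in the levels of the GTPase genes was not tested.

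The reads of these genes fell on few transcripts. Gbp3-202 held 98.6% of the reads of its gene, Gbp2-201 99.8% and Igtp-201 92.4%. Of the reads of Gbp4, 78.7% went to a transcript annotated for nonsense-mediated decay, with 77.8% in Control(D) and 77.9% in Ccnd1-Ikk2ca. Of those of Gbp9, 43.2% went to a retained-intron transcript, so a higher read number of these genes is not the same as more coding transcript. In Gbp5, the coding transcript Gbp5-201 held 68.3% of the reads in Control(D) and 45.6% in Ccnd1-Ikk2ca, and 44.1% and 47.5% in Control(M) and MMSET-Ikk2ca.

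Near-identical stretches limit how well the genes can be told apart. Of the 31-base words of the leading transcript, 31.6% for Gbp9 and 22.9% for Gbp4 occur in other genes, mostly Gbp8, Gbp6 and the gene model Gm43302. The share was 16.4% for Igtp, almost all with Irgm2, and 9.86% for Irgm2, mostly with Igtp. It was 8.39% for Gbp7 and 7.05% for Gbp3, mostly with each other, 14.3% for Iigp1, 4.91% for Gbp2, 4.44% for Irgm1 and 0.772% for Gbp5. The values of Gbp4, Gbp9, Igtp and Irgm2 are the least certain in this respect, also because their loci overlap.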

How the data were processed

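Expression was measured by RNA-seq in 36 libraries of 2000 sorted plasma cells. Per the labels' protocols, cDNA was primed with oligo-dT, made with a template switch, amplified and tagmented (Nextera XT), and no molecular identifiers are described, so PCR copies remain. Per the submitters' processing notes, the authors used bcl2fastq 2.20.0.422, Salmon 1.3.0, the build GRCm38 and DESeq2 1.32.0. The deposited values are estimated counts (expected counts, not whole numbers) and TPM per transcript, per the file headers. Of 140825 transcripts, 139960 matched GENCODE release 21 and were summed to 54203 genes, and the 865 others held 0.0636% to 0.134% of reads. No strand was used.

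Sums were rounded and tested two-sided with edgeR 4.0.16 (TMM, filterByExpr, robust quasi-likelihood, Benjamini-Hochberg adjusted p under 0.05) in R 4.3.3. For 12 comparisons 1 fit held the 18 libraries of a cohort (15323 genes in D, 15416 in M), and for 5 across cohorts all 36 (17116 genes). Levels are CPM with TMM over 36 libraries, and log2 CPM used a prior count of 2. DESeq2 1.42.0, limma 3.58.1 (voom), a library left out, a replicate block, Xist as covariate, other filters, other scaling and other sample sets were alternatives, and the test was checked on simulated data. The 10 genes were tested in every comparison, and the text names those that passed, those with an unadjusted p under 0.05 and those whose levels it gives. From each other list up to 4 called genes with the smallest p per double transgenic comparison are named, plus up to 2 for their role, and the 6 genes most like the members in each measure. Called genes with a group near 0 reads (Samd9l, Ciita, Usp18, Ifi44) get no fold change. The members and lists were chosen with earlier results of these data known.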

Additional observations from a re-analysis of the deposited data

Results flagged for a closer look

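In groups of 4 or 6 libraries, a single library stood apart from the others in 8 of 79 sets of 1 gene in 1 group. Chance gives about 5%, a rate that does not hold for Iigp1, where libraries with 0 reads share 1 floor value. Since flags of Iigp1 are among the 8, no excess over chance is read from this count. The library that stood apart was far below the rest for Gbp2 in Control(M) library 4 (0.0319 CPM), for Gbp3 in Ikk2ca(D) library 3 (29.0 CPM, in a narrow group) and for Gbp5 in Ikk2ca(M) library 4 (18.9 CPM). It was far above for Gbp7 in Ikk2ca(M) library 3 (83.3 CPM). For Iigp1, library 4 alone stood out in Control(D) (0.434 CPM), Ikk2ca(D) (1.20 CPM) and Ikk2ca(M) (0.645 CPM), with at most 1 read in the libraries beside it, and MMSET-Ikk2ca library 5 (0.699 CPM) was the lowest of its group.

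For Iigp1 the mean log2 CPM stood at 4.15 against the control in MMSET-Ikk2ca and at -0.99 in Ccnd1-Ikk2ca. Neither passed within its cohort (edgeR adjusted p = 0.277 and 0.148), nor did the test of the difference between them (0.244). The value of -0.99 depends on the prior count and on 1 control library, since the 6 Ccnd1-Ikk2ca libraries and 3 of 4 controls had 0 reads.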

How the results depend on the processing

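No direction reversed among called values. Of 576 counts of GTPase genes under other settings, 509 stayed within 1.5 times the reported count, 44 were lower and 23 higher. Of 5752 log2 fold changes, 5577 kept their side of the threshold, 120 lost the call and 55 gained it, and 128 differed in sign with no call in either fit. The causes were not tested. With DESeq2 the count was 3 for Ikk2ca(D) and 2 for MMSET against their controls, 3 for Ikk2ca(M), 6 for MMSET-Ikk2ca, 1 for Ccnd1-Ikk2ca against Ikk2ca(D), 2 for MMSET-Ikk2ca against Ikk2ca(M) and 1 between the controls. With limma voom it was 1 for Ikk2ca(M) and 1, Iigp1, for MMSET-Ikk2ca against Ikk2ca(M). The DESeq2 count of 2 for that comparison also includes Iigp1. With only the groups compared it was 2 for Ikk2ca(D), 1 for Ikk2ca(M), and 1 each between controls, between Ikk2ca groups and between double transgenic groups, and the interactions within a cohort have no such fit. Without immunoglobulin genes it was 1 for Ikk2ca(M). Without a filter it was 1 for MMSET-Ikk2ca against Control(M). Between the double transgenic groups the main count was 2, with Iigp1 counted beside Irgm1. With DESeq2 and with limma voom it was 3, as Gbp9 was called too. It was 1 there without a filter, with Xist as covariate and with only the groups compared. In each of these the 1 was Iigp1, and Irgm1 did not pass (edgeR adjusted p = 0.101, 0.0552 and 0.0669). All 36 libraries in 1 fit gave 5 for MMSET-Ikk2ca.

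Same-numbered libraries deviated together weakly at most (correlations from -0.0348 to 0.101). The mean of these correlations was above 0 in every pair of groups of a cohort, from 0.00234 to 0.0523. The check thus does not settle whether the numbers pair libraries. With a replicate block over libraries 1 to 4, Ccnd1-Ikk2ca gave 4 calls against Control(D), with Gbp2 lost (adjusted p = 0.0544), and 3 against Ccnd1. The same libraries with no replicate block gave 3 against Ccnd1 and 0 between the double transgenic groups.

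Leaving out 1 library gave 5 to 7 calls for Ccnd1-Ikk2ca, 3 to 8 against Ccnd1, 1 to 4 for MMSET-Ikk2ca and 1 to 2 between the double transgenic groups. The last range counts Iigp1, whose calls are not read as evidence. Where it was 1, Irgm1 was lost and the call left was Iigp1. It gave 0 to 1 for Ikk2ca(D) (1 without Ccnd1-Ikk2ca library 4), for MMSET (1 without MMSET library 1) and for Ikk2ca(M) (1 without MMSET library 1, 3 or 4, Ikk2ca(M) library 4 or MMSET-Ikk2ca library 1 or 4).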
